A study of Mus musculus with 43 samples.

Results

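Lesion-to-lesion variation of DNA methylation was examined in polypoid dysplasia of mice with colitis. The libraries were all 13 polyp libraries of the second cohort, set against all 12 libraries of non-dysplastic epithelium of that cohort, out of 43 libraries in the series. The quantity compared was not the mean methylation of a site but how far each library lay from the mean of its own tissue and diet. Of 173449 CCCGGG sites listed, 9090 had at least 50 reads in at least 10 libraries of each tissue and were compared, and 4055 of these had at least 50 reads in all 25 libraries.

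All mice were female Swiss Webster mice injected with azoxymethane (AOM), a colon carcinogen, and given 4 cycles of dextran sulfate sodium (DSS), which injures the colonic epithelium and causes colitis. From the end of the first DSS cycle they received chow with 0 or 8 mg/kg folic acid (FA) for 16 weeks and were killed at 27 weeks of age. The groups were 0 mg FA polyps (0P, n = 6), 0 mg FA non-dysplastic epithelium (0ND, n = 6), 8 mg FA polyps (8P, n = 7) and 8 mg FA non-dysplastic epithelium (8ND, n = 6). They came from 12 mice, 6 on each diet, each with an epithelium library and a polyp library. Mouse 1856 gave 2 polyps. Swiss Webster is an outbred stock, so mice also differ in genotype, and apart from mouse 1856 differences between polyps are also differences between mice. Cells were laser microdissected from formalin-fixed sections, in which DNA is fragmented. The paper describes non-dysplastic samples of epithelial cells alone and others of epithelium with the lamina propria. The sample titles say only non-neoplastic cells, so which material a library held is not known here. All are called epithelium below.

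Folate supplies methyl groups for S-adenosylmethionine, the donor used by DNA methyltransferases. In mammals, CpG islands are mostly unmethylated and CpGs outside them mostly methylated, and colon tumors typically lose methylation outside islands and gain it at some islands. Tumors grow from few cells, so a methylation state present in a founding cell can come to be shared by most cells of a lesion, and lesions of separate origin can differ from each other. In DREAM, SmaI cuts unmethylated CCCGGG sites and XmaI then cuts the remaining ones, so that each read end reports the state of 1 CpG in 1 DNA copy. The percentage of a site is therefore the share of methylated reads. It equals the share of methylated copies among the cells sampled only where copies are amplified and read evenly.

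Spread was measured as follows. At each site the group mean was subtracted, the deviation was squared, and the variance that counting a limited number of reads would give was taken off. The average over the compared sites gave each library a value in squared percentage points. Its square root, called the deviation of the library, is given in percentage points. Differences between groups were tested on the squared values by 2-sided exact permutation tests over libraries, and 83 such tests were adjusted together by the Benjamini-Hochberg method. Tests within classes of sites, of neighbouring sites, of all-or-none values and between diets within a tissue were added after the data had been seen. The smallest p that 6 libraries against 6 can give is 0.00216, and that 7 against 6 can give is 0.000583. Tests with 7 libraries counted both polyps of mouse 1856, which are not independent mice.

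Libraries differed in depth and composition. Each library had between 1774213 and 13960168 reads on CCCGGG sites, and a compared site held a median of 225 to 908 reads in 8P libraries and 125 to 369 in the other groups. Reads on the spiked methylation standards took 32.6% to 77.4% of all reads in 0P, against 6.98% to 52.7% in 0ND, 8.85% to 47.2% in 8ND and 8.80% to 40.3% in 8P. The 0P library of mouse 1805 had the highest share of reads on standards, 77.4%, and reached 50 reads at 6839 of the compared sites. The 8ND library of mouse 1830 reached 50 reads at 6830 of them. The counting variance was 0.755 to 4.08 squared points per library and in every library was smaller than the spread described here.

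The standards also set the tissues apart. Without the library labelled 8ND 1856, the readings of 5 of the 18 standards did not overlap between polyps and epithelium. The standard Sla341_2 read 38.6% to 42.7% in the polyps and 15.1% to 30.1% in the other epithelium libraries, and 41.8% in the library labelled 8ND 1856. At 4 of these 5 standards that library lay within the range of the polyps, and at the fifth, Sla374_1, it read 98.84%, just above the highest polyp (98.83%). Polyps and epithelium therefore differed in how the standards read, and a difference in spread between tissues cannot be told apart from a difference in library preparation. No standard had readings without overlap between 0P and 8P.

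Polyps of mice without dietary FA differed widely from each other. In 0P the deviation was 5.27 points in the lowest library, 6.70 at the median and 11.1 in the highest, and in 0ND it was 2.47, 3.95 and 5.32 points. The ranges met only at their edges: the 0P library of mouse 1820 (5.27 points) lay just under the 0ND library of mouse 1805 (5.32 points). The average squared value was 55.5 squared points in 0P and 16.6 in 0ND, which correspond to deviations of 7.45 and 4.07 points. The difference was 38.9 squared points (exact permutation p = 0.00433, adjusted p = 0.0156). The polyp had the larger value than the epithelium of the same mouse in 6 of 6 mice (sign-flip permutation p = 0.0312, the smallest that 6 mice allow). Without the 0P library of mouse 1805, which had the highest share of reads on standards, the difference was 22.6 squared points (exact permutation p = 0.00866). At sites with at least 100 reads it was 20.2 (exact permutation p = 0.00216).

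Polyps of mice on 8 mg FA resembled each other more closely than the second-cohort epithelium libraries of the same mice did. The deviation in 8P was 3.33 points in the lowest library, 4.37 at the median and 4.62 in the highest, while in 8ND it was 3.80, 5.67 and 7.85 points. Only the 8ND library of mouse 1800 (3.80 points) lay within the range of 8P. The average squared value was 17.5 squared points in 8P and 34.2 in 8ND, a difference of -16.7 (exact permutation p = 0.0111, adjusted p = 0.0296). Without the second polyp of mouse 1856 the difference was -17.1 (exact permutation p = 0.0238). Within mice the polyp had the smaller value in 5 of 6 animals, mouse 1800 being the exception, and the paired test did not pass (mean difference -17.0 squared points, sign-flip permutation p = 0.0938). Without the 8ND library of mouse 1830 the difference was -10.0 squared points (exact permutation p = 0.0455), and without the library labelled 8ND 1856 it was -15.2 (exact permutation p = 0.0202). Without the 3 8ND libraries in which the 100 most-read sites took over 8% of the reads (mice 1830, 1848 and 1858) it was -2.90 squared points and no longer passed (exact permutation p = 0.525). At sites with at least 100 reads it was -5.32 and did not pass (exact permutation p = 0.104). With every value drawn down to 50 reads, it was -16.4 (exact permutation p = 0.0157). Drawing down equalizes the read counts but not the number of DNA copies that the reads came from.

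**Figure D1:**
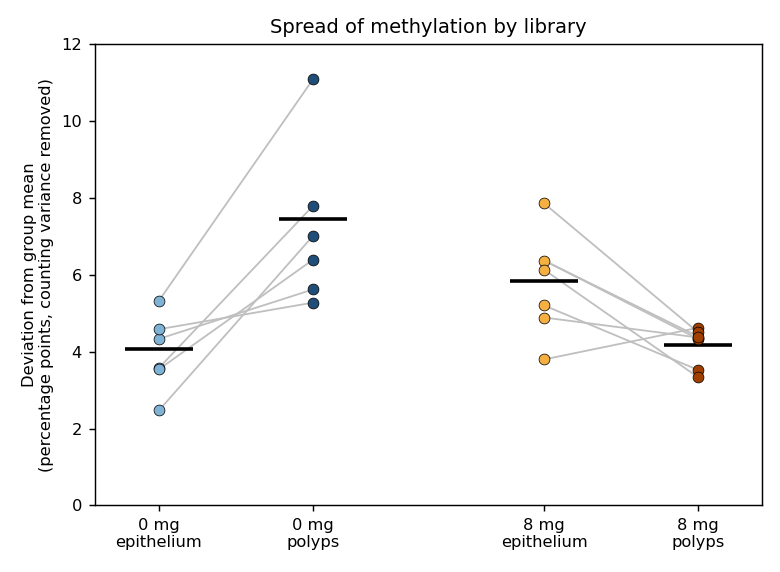
Deviation of each library from its group mean in percentage points (y axis) for the 4 groups, with 1 point per library; grey lines join epithelium and polyp of the same mouse and black bars are the square root of the mean squared value of the group. The lines rise in all 6 mice on 0 mg FA and fall in 5 of 6 mice on 8 mg FA.

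The change from epithelium to polyp thus ran in opposite directions on the 2 diets. The per-mouse change averaged 38.9 squared points on 0 mg FA and -17.0 on 8 mg FA, and these changes differed by 55.9 (exact permutation of diet over the 12 mice, p = 0.00433, adjusted p = 0.0156). Without the 6 epithelium libraries with over 8% of reads on the 100 most-read sites, 3 on each diet, it was 41.9 with the smallest p that 3 mice against 3 allow (exact permutation p = 0.1), and without the library labelled 8ND 1856 it was 54.7 (exact permutation p = 0.0108). With a minimum of 100 reads it was 25.7 and with a minimum of 20 reads 96.0 (exact permutation p = 0.00433 for each). Over both diets together, polyps averaged 35.0 and epithelium 25.4 squared points, and that difference of 9.61 did not pass (exact permutation within diet, p = 0.373). Between the diets, 8P lay 38.0 squared points below 0P (exact permutation p = 0.000583, adjusted p = 0.00967) and none of the 7 8P libraries reached the lowest 0P library. That p is the smallest that 7 libraries against 6 allow, with both polyps of mouse 1856 counted. 8ND lay 17.6 squared points above 0ND (exact permutation p = 0.0303, adjusted p = 0.0629). In the first cohort, at the same sites, the deviation of epithelium was 3.10 points on 0 mg FA (n = 5) and 3.09 on 8 mg FA (n = 6), a difference in squared value of -0.0509 (exact permutation p = 0.970). 8 mice gave epithelium to both cohorts, and whether both cohorts held the same dissected material is not known here. The first-cohort 8ND value lay below that of 8P (4.18 points), with overlapping ranges (2.69 to 3.61 and 3.33 to 4.62 points). The smaller spread of polyps on 8 mg FA thus held only against second-cohort epithelium. The 8ND library of mouse 1830 deviated by 2.92 points in the first cohort and by 7.85 in the second.

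Values fixed at either end were common in some of these libraries. Among sites with a mean methylation of 20 to 80%, the share that read at most 2% or at least 98% was 0.286% in the lowest 0P library, 2.77% at the median and 37.6% in the highest, that of mouse 1805. In 8P it was 0% in 6 libraries and 0.0958% in that of mouse 1830. In 0ND the shares were 0%, 0.949% and 2.88%, and in 8ND 0%, 0.542% and 10.5%, the last being mouse 1830. Polyps had fewer such values than epithelium on 8 mg FA (0.0137% against 2.80% on average, exact permutation p = 0.00466, adjusted p = 0.0161, paired sign-flip permutation p = 0.0625), and on 0 mg FA the difference did not pass (exact permutation p = 0.147). The libraries with the largest deviation in 0P and in 8ND were those with the most all-or-none values. They were also the libraries of their group with the fewest covered sites, and the part of coverage in these values was not tested.

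Most of the spread lay at sites that were neither empty nor full. The 6977 sites with a mean methylation up to 5%, 76.8% of the compared sites, held 5.01% to 5.88% of the summed squared deviation in each group. At sites of 50 to 80% mean methylation (509 sites) the deviation was 19.9 points in 0P and 9.36 in 0ND, with all 0P libraries (13.6 to 31.1 points) above all 0ND libraries (6.22 to 11.5 points; exact permutation p = 0.00216, adjusted p = 0.0120). In the same class it was 10.5 points in 8P and 14.7 in 8ND (exact permutation p = 0.00583, adjusted p = 0.0193, paired sign-flip permutation p = 0.0625). Without mouse 1805 the 0P value was 16.2 points, and without mouse 1830 the 8ND value was 13.0 points.

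Among the 5 classes of methylation level, the ratio of the 0P to the 0ND deviation was largest at highly methylated sites. At 520 sites above 80% the deviation was 12.7 points in 0P (8.22 to 20.2) and 5.06 in 0ND (2.98 to 6.43), again with no overlap (exact permutation p = 0.00216, adjusted p = 0.0120). These sites averaged 87.9% methylation in 0P, 93.1% in 0ND, 87.4% in 8P and 91.6% in 8ND, so that polyps had the lower mean on both diets, while the deviation in 8P, 6.41 points, did not pass against 8ND, 7.82 points (exact permutation p = 0.201). At 554 sites of 20 to 50% the deviation was 16.5 points in 0P, 10.5 in 0ND, 9.43 in 8P and 14.3 in 8ND, and both diets passed the test (exact permutation p = 0.00866 on 0 mg FA and 0.000583 on 8 mg FA), though the paired sign-flip permutation p on 0 mg FA was 0.0625. At 530 sites of 5 to 20% it was 11.3, 6.81, 6.66 and 9.12 points in the same order, with an adjusted p of 0.0317 on 0 mg FA and 0.0731 on 8 mg FA (exact permutation). Sites up to 5% deviated by 2.12 points in 0P and 1.04 in 0ND (exact permutation p = 0.00649, adjusted p = 0.0207), and by 1.10 in 8P and 1.61 in 8ND (exact permutation p = 0.108). The difference between diets passed in each of the 5 classes, with adjusted p between 0.0120 and 0.0296.

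**Figure D2:**
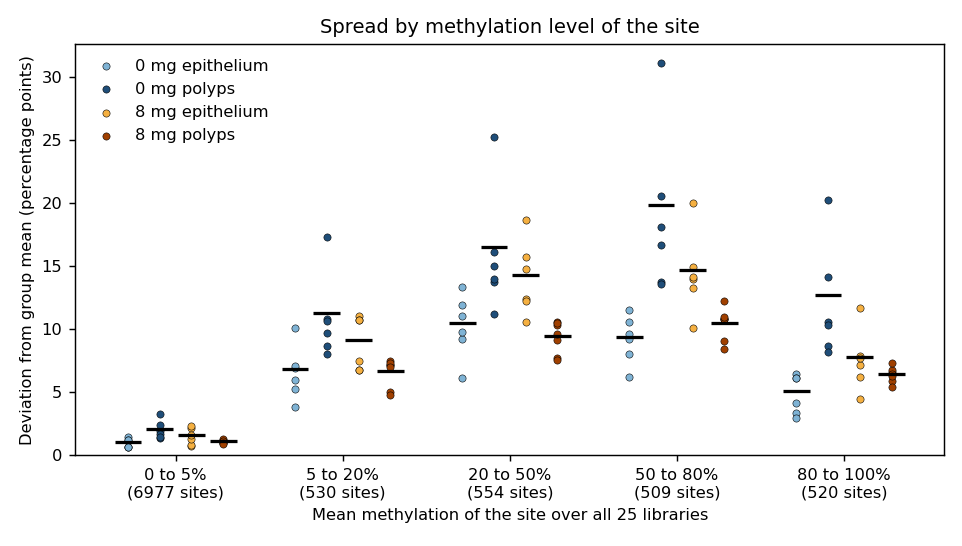
Deviation from the group mean in percentage points (y axis) by the mean methylation of the site over all 25 libraries (x axis, number of sites in brackets); points are libraries and black bars the root of the mean squared value of each group. In the 50 to 80% class every 0P library lies above every 0ND library.

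The X chromosome, of which each female cell methylates many CpG islands on the inactive copy, gave the same order. At its 144 compared sites the deviation was 12.7 points in 0P, 7.34 in 0ND, 7.59 in 8P and 11.4 in 8ND. Both diets passed (exact permutation p = 0.00866 on 0 mg FA and 0.0122 on 8 mg FA), while the paired sign-flip permutation p on 8 mg FA was 0.125. The 8946 autosomal sites gave 7.34, 4.00, 4.10 and 5.72 points in the same order. The distance to the nearest listed site separated few sites, because 99.4% of the compared sites had a neighbour within 400 bases. The 32 sites more than 2000 bases from any other deviated by 12.3 points in 0P, 8.36 in 0ND, 7.24 in 8P and 10.4 in 8ND.

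Neighbouring sites show how much of a deviation is shared along a stretch of DNA. Methylation of CpGs close together on the DNA is usually similar in the same cell, and sites this close can also be both ends of the same sequenced fragment. For 5868 pairs of compared sites up to 400 bases apart, the product of both deviations was averaged in each library and given as a percentage of the squared deviation at the same sites. Only counting variance was taken off, so other noise that neighbours do not share would also lower this percentage. This shared part was 59.2% at the median of 0ND (47.6% to 71.9%) and 28.1% at the median of 0P (21.7% to 38.3%), without overlap. In 8ND the median was 57.2% (29.6% to 77.9%) and in 8P 41.4% (28.9% to 49.0%). Over both diets the shared part was lower in polyps by 23.0 percentage points (34.6% against 57.6%, exact permutation within diet, p = 5.99e-05, adjusted p = 0.00249). The share per library and its test were added after the data had been seen.

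On 0 mg FA the shared part differed by -30.0 percentage points (exact permutation p = 0.00216, adjusted p = 0.0120) and on 8 mg FA by -16.7 (exact permutation p = 0.0303, adjusted p = 0.0629). The library labelled 8ND 1856 (29.6%), whose standards read like those of the polyps, lay among the 8P libraries, and the 0ND library of mouse 1808 (47.6%) lay just under the highest 8P library (49.0%). Without the library labelled 8ND 1856 the difference on 8 mg FA was -22.0 percentage points (exact permutation p = 0.00126, adjusted p = 0.0120) and no 8ND library overlapped 8P. The difference between diets in this share did not pass (exact permutation p = 0.0909). The shared part thus moved with the reading of the standards, also in the library labelled 8ND 1856, and its dependence on library preparation was not tested.

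In squared points, the covariance of these pairs was 11.3 in 0P, 6.83 in 0ND, 5.02 in 8P and 12.9 in 8ND. The difference on 0 mg FA, 4.43, did not pass (exact permutation p = 0.0952), and that on 8 mg FA, -7.88, did (exact permutation p = 0.000583, adjusted p = 0.00967). The added spread of 0P at these sites, 41.1 against 11.9 squared points in 0ND, was thus mostly not shared with the neighbour. Over longer distances less was shared. For 903 pairs more than 1000 and up to 5000 bases apart the covariance was 2.21 squared points in 0P, 1.64 in 0ND, 3.95 in 8P and 5.56 in 8ND, and for 4224 pairs more than 100000 bases apart it lay between -0.434 and 0.420. Neither diet passed for the pairs more than 1000 and up to 5000 bases apart (exact permutation p = 0.745 on 0 mg FA and 0.650 on 8 mg FA). The same held for those more than 100000 bases apart (exact permutation p = 0.223 and 0.331).

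**Figure D3:**
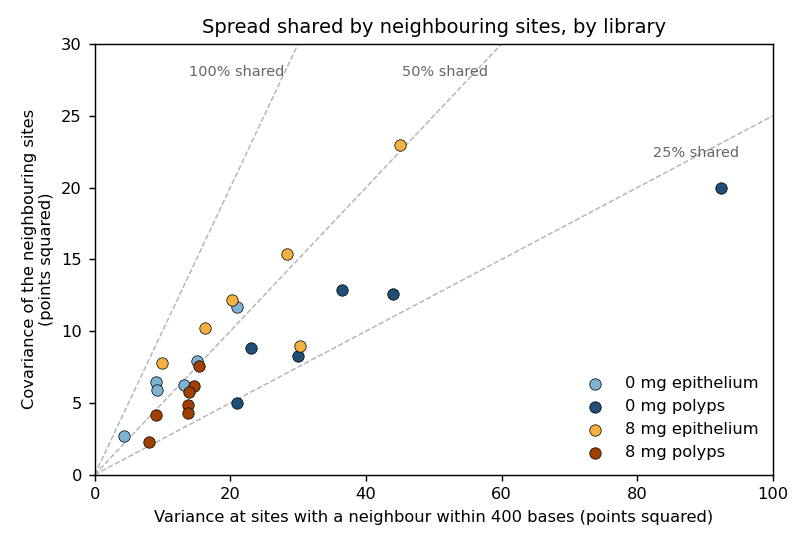
Covariance of the deviations of sites up to 400 bases apart (y axis, squared percentage points) against the squared deviation at the same sites (x axis), 1 point per library; dashed lines mark shares of 25, 50 and 100%. 0P libraries lie between 21.7% and 38.3% and 0ND libraries between 47.6% and 71.9%.

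Single-lesion gains and losses were counted as sites at least 20 points above the highest, or below the lowest, epithelium library of the other mice. Gains took 0.0334% of covered sites in the lowest 0P library, 0.280% at the median and 1.56% in the highest, and 0.0110%, 0.0330% and 0.187% in 8P. The epithelium libraries counted the same way, each against the other mice, gave 0%, 0.0497% and 0.233% in 0ND and 0.0119%, 0.199% and 0.615% in 8ND. The difference between polyps and epithelium in gains did not pass (0.102 percentage points, exact permutation p = 0.562), while the change from epithelium to polyp was higher on 0 mg FA than on 8 mg FA by 0.553 percentage points (exact permutation p = 0.0152, adjusted p = 0.0359).

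Median losses were larger than median gains in both groups of polyps. Losses took 0.0667% of covered sites in the lowest 0P library, 0.443% at the median and 2.31% in the highest, against 0%, 0.00554% and 0.0583% in 0ND, so that the groups did not overlap (exact permutation p = 0.00216, adjusted p = 0.0120). In 8P losses took 0.0440%, 0.176% and 0.506%, and in 8ND 0%, 0.122% and 0.878%, a difference of 0.00160 percentage points (exact permutation p = 0.995). Over both diets the difference was 0.393 percentage points and did not pass (exact permutation within diet, p = 0.0515). A loss below all epithelium libraries also counts a lower mean of polyps, so it is not a measure of spread alone. In 0P, 2 libraries held most losses, mouse 1805 with 158 sites and mouse 1807 with 137, while mouse 1808 had 6.

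Most changed sites were changed in 1 lesion only. Of all compared sites, 2.6% (236) were gained in at least 1 polyp and 1.64% (149) in at least 1 epithelium library, while 4.26% (387) were lost in at least 1 polyp and 1.21% (110) in at least 1 epithelium library. By diet, 2.23% (203) were gained in at least 1 0P library and 0.495% (45) in at least 1 8P library, while 3.72% (338) and 1.22% (111) were lost. In 0P the library of mouse 1805 gained 107 sites, the next, that of mouse 1839, 45, and that of mouse 1808 only 3. Among the gained sites 214 were gained in a single polyp, and 7 in 3 or more. Among the lost sites 287 were lost in a single polyp, 62 in 2 and 38 in 3 or more, with at most 8 of 13 polyps losing the same site. A site gained or lost in an epithelium library was by construction far from all other mice, so recurrence was not counted there. Gained sites had a median epithelium methylation of 8.28% and lost sites of 82.3%. Losses at 62 sites, and gains at 12, occurred in both 0P and 8P.

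**Figure D4:**
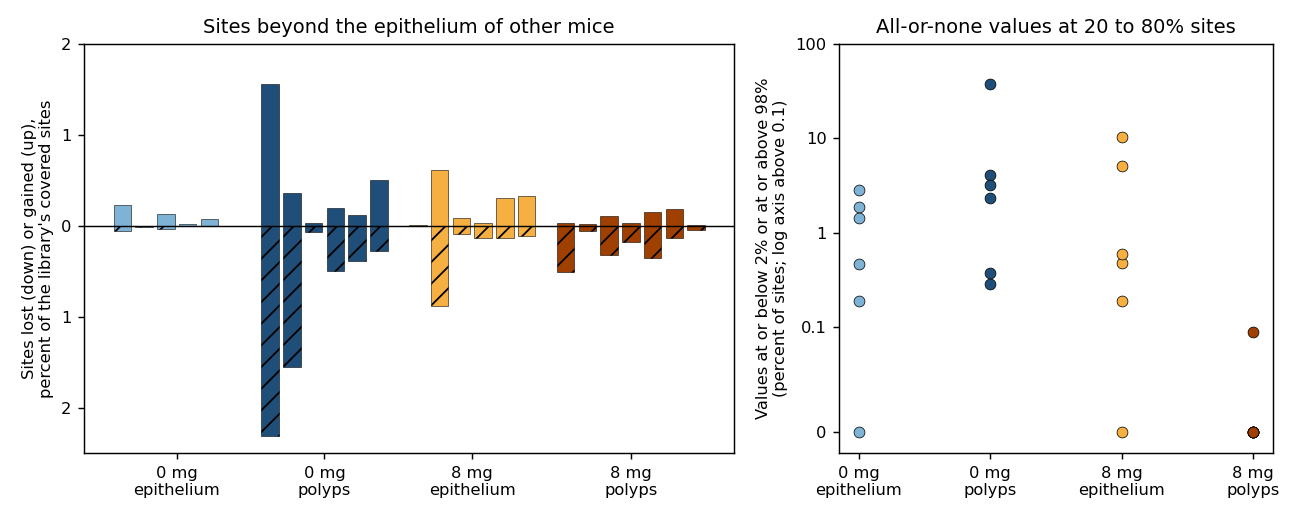
Left, sites gained (upward bars) or lost (downward hatched bars) per library as percent of its covered sites; right, share of sites of 20 to 80% mean methylation that read at most 2% or at least 98% (log axis above 0.1%), 1 point per library. The 0P library of mouse 1805 is highest in gains (1.56%), losses (2.31%) and all-or-none values (37.6%).

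The 2 polyps of mouse 1856 were not closer to each other than the median pair of polyps from different mice. Their root mean square difference, with counting variance removed, was 6.46 points, and 80 sites differed by more than 30 points. For the 20 pairs of 8P libraries from different mice it was 4.61 to 6.87 points with a median of 5.71, and 3 of these pairs differed more. With a single such mouse there is no test. Pairs of 0P libraries differed by 6.77 to 13.6 points (median 9.64, 15 pairs), and pairs of 0ND libraries by 3.93 to 7.46 (median 5.69). The polyps of mouse 1856 shared 0 gained and 2 lost sites. A polyp was also about as far from its own epithelium as from that of other mice on its diet, with medians of 8.77 and 9.36 points on 0 mg FA and 7.37 and 7.46 points on 8 mg FA.

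Individual sites show what these values mean. The 12 sites in the plot of single sites were those with the largest difference in spread between tissues, among sites that reached 50 reads in every library and at most 1 per 5000 bases. They are given by position on chromosomes of mm9, are chosen by their spread, and are described with no test. At chromosome 5 position 121161209 polyps deviated by 27.4 points and epithelium by 3.82. This site read 2.98% to 100% in 0P with a median of 20.5%, and 4.81% to 10.3% in 0ND. In 8P it read 3.53% to 36.8%, and in 8ND 1.13% to 15.4%. Methylation was low in all epithelium, and 3 of 6 0P libraries lay above 25%. A compared site 185 bases away deviated by 3.99 points in polyps.

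Single libraries decided several of these sites. At chromosome 5 position 125910389 the 0P library of mouse 1805 read 2.03% over 51 reads, while all 0ND libraries read 84.0% or more, and without that library the deviation of polyps fell from 25.7 to 4.30 points. At chromosome 17 position 29764225 the same library read 0% over 52 reads, and the deviation of polyps without it was 6.57 points instead of 23.3. Of the 8 sites with more spread in polyps, the polyp farthest from its group was that of mouse 1805 at 7, and 6 of the 8 kept a larger deviation in polyps than in epithelium without it.

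Other sites were spread among many lesions. At chromosome 4 position 151885339 the 0P libraries read 17.8% to 91.2% with a median of 40.9%, and the 8P libraries 27.2% to 86.6% with a median of 48.3%, against 46.6% to 66.5% in 0ND and 43.0% to 73.6% in 8ND. Without mouse 1805 its polyps still deviated by 23.1 points, against 10.4 in epithelium. At chromosome 13 position 34224487 the readings were 4.74% to 77.3% in 0P, 15.7% to 67.4% in 8P, 14.2% to 39.2% in 0ND and 15.6% to 36.2% in 8ND. At chromosome 11 position 85731821 they were 0% to 94.0% in 0P, 31.5% to 78.5% in 8P, 24.6% to 50.7% in 0ND and 18.6% to 60.6% in 8ND. At these 3 sites the highest polyp of each diet lay above all epithelium libraries. Without mouse 1805 polyps still deviated by 19.7 points at the second and 20.3 at the third of them, against 7.36 and 11.6 in epithelium. Compared sites 184, 212 and 119 bases from these 3 sites also deviated in polyps, by 22.5, 18.0 and 16.0 points. In epithelium the same neighbours deviated by 11.4, 12.9 and 8.64 points.

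**Figure D5:**
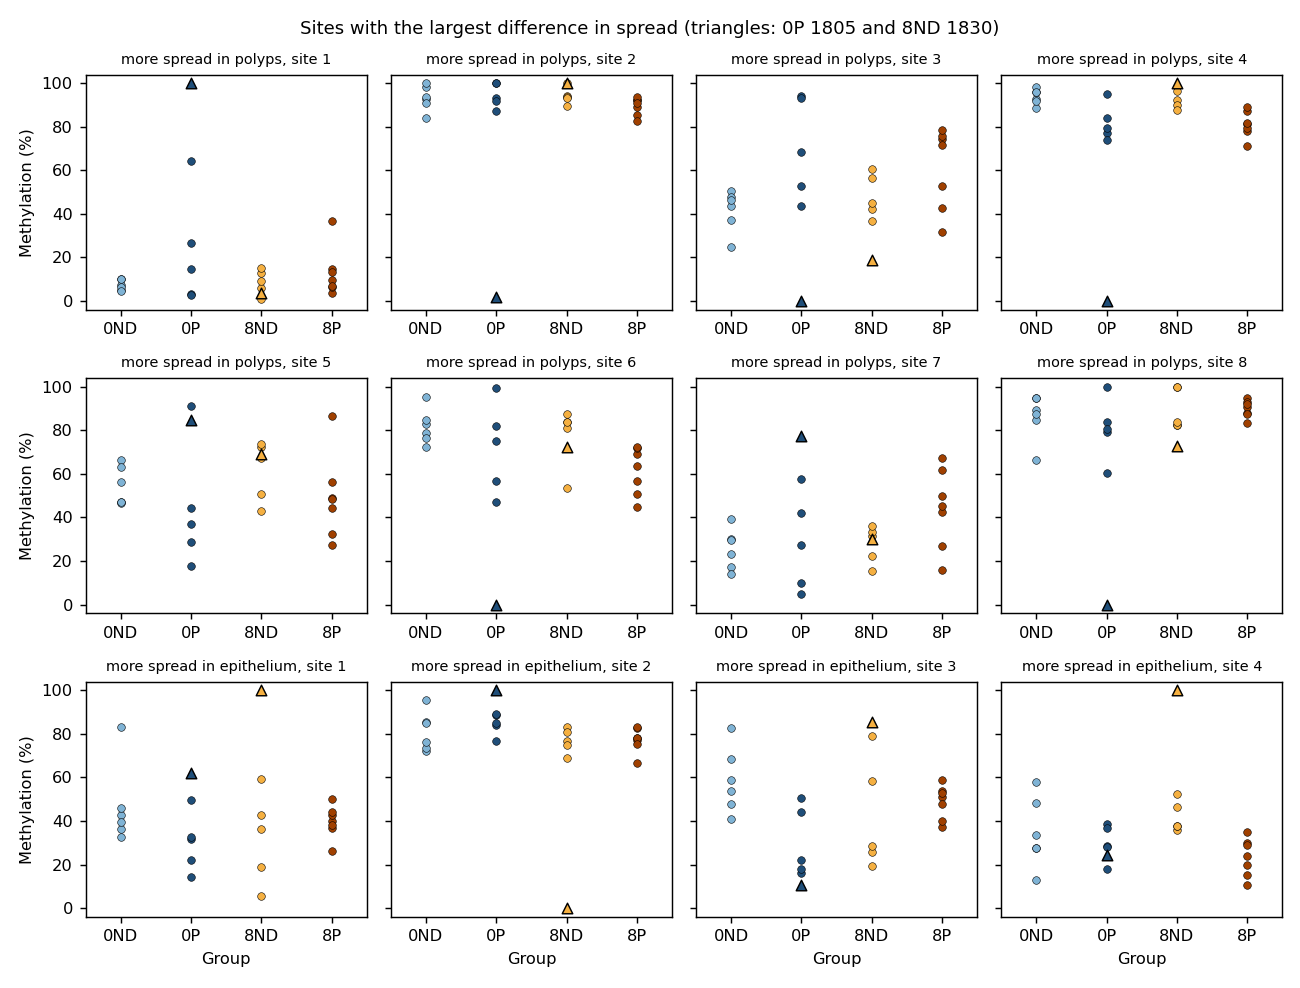
Methylation in percent (y axis) in each library of the 4 groups (x axis) at the 8 sites with the largest excess of spread in polyps and the 4 with the largest excess in epithelium; triangles mark the 0P library of mouse 1805 and the 8ND library of mouse 1830. Triangles stand at 0% or 100% in several panels, and the epithelium library farthest from its group is that of mouse 1830 at all 4 sites of the bottom row.

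At the 4 sites with more spread in epithelium, the library farthest from its group was always the 8ND library of mouse 1830. At chromosome 2 position 115498805 it read 100% over 55 reads, while 8ND had a median of 39.5% and 8P read 26.3% to 49.9%. At chromosome 11 position 78344279 it read 0% over 76 reads, while 8P read 66.6% to 83.3%. The other sites of this kind were at chromosome 2 position 30350336 and chromosome 9 position 61866497. The 4 sites with the largest spread in both tissues were at chromosome 12 position 29683341, chromosome 3 position 151826724, chromosome 9 position 42193980 and chromosome 11 position 115476845, where polyps deviated by 16.0 to 25.0 points and epithelium by 16.5 to 17.9.

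Across sites, the variance was larger in polyps than in epithelium at 5280 of 9090 sites (58.1%) over both diets. Over all 9090 sites it was larger in 0P than in 0ND at 43.6% (3959) and larger in 8P than in 8ND at 49.1% (4465). The median deviation over all these sites was 0 points in 0P, 0ND and 8ND. The remaining sites can therefore not be read as having less spread in polyps. At the 1063 sites of 20 to 80% mean methylation the variance was larger in 0P than in 0ND at 81.1% of the sites, with median deviations of 15.0 and 8.33 points. It was larger in 8P than in 8ND at 29.1%, with 8.84 and 12.5 points. A deviation above 10 points was found at 14.5% of sites in 0P, 5.07% in 0ND, 10.9% in 8ND and 5.42% in 8P. Sites share libraries, so these counts carry no test. A per-site fit of absolute deviations from the group mean (limma with Benjamini-Hochberg adjustment) called 1167 sites with more spread in polyps (12.8%) and 291 with less (3.2%). With deviations from the group median the same fit called 2 (0.022%) and 1 (0.011%), and 1074 and 264 of the calls from the mean lay at sites up to 5%. Without the 6 epithelium libraries with over 8% of reads on the 100 most-read sites the fit from the mean called 230 with more and 795 with less spread in polyps, so that the prevailing direction turned. Single sites are therefore not reported as changed in spread.

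Over both diets together, the spiked standards showed the reverse order of the tissues. Their readings scattered by 1.18 points at the median of the 18 standards in polyps and 3.10 in epithelium, and polyps scattered more at 1 standard. The medians were 1.11 points in 0P, 1.46 in 0ND, 1.06 in 8P and 3.25 in 8ND, and the 8ND value includes the library labelled 8ND 1856. On 8 mg FA the order was thus the same as at the compared sites, where 8P deviated by 4.18 points and 8ND by 5.85. Each standard had at least 3118 reads in every library. The adjustment itself is set by these standards. On the adjusted scale 0P scattered more than 0ND at 4 of the 18 standards, and on the raw scale at 11 of 18, with raw medians of 1.13 points in 0P and 1.74 in 0ND, so that the order of these groups at the standards depended on the scale.

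Sites close to the limit on coverage deviated more than the average site. At the 1598 sites that just met the limit, with 10 covered libraries in the less covered tissue, polyps deviated by 7.06 points and epithelium by 6.75, and at the 1291 sites that just missed it, with 9, by 7.81 and 7.75 points.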

How the data were processed

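DREAM gave 43 libraries, of which 25 from the second cohort were compared and 18 from the first gave epithelium at the same sites. The deposited files hold, per CCCGGG site, read counts by methylation state, the percent before adjustment and an adjusted percent, which the authors obtained by multiplying the odds of each library by 1 factor from the spiked standards. Bowtie2, SAMtools and mm9 are named in the submitters' processing notes, without versions. Sites with at least 50 reads in 10 libraries of each tissue were kept, and lower values were left out. Because the files use mm9 and no mm9 annotation was used here, sites are given by position only.

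Libraries were grouped by the labels. Deviations from the mean of diet and tissue were squared, scaled for group size and reduced by binomial counting variance. Exact permutation tests used Python 3.11.15, numpy 2.4.6, pandas 2.3.3 and scipy 1.17.1, and the per-site fit used limma 3.58.1 in R 4.3.3. Figures used matplotlib 3.10.9. Both were tested on simulated data, where the fit from the group mean still called sites of low methylation drawn with equal spread. The permutation p-values give how often exchanged labels among these libraries or mice yield as large a difference. Intervals for counting error would not cover amplification. The members, lists and tests were chosen with earlier results of these data known.

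Samples with the same mouse number come from the same animal and were paired. The correlation of their deviations averaged 0.0368 on 0 mg FA and 0.120 on 8 mg FA, against -0.00653 and -0.0244 between different mice. On 8 mg FA mouse 1800 had the highest correlation, 0.449, and the other pairs ran from -0.0764 to 0.124. Named sites were the 8 with the largest and the 4 with the smallest difference in variance, polyps minus epithelium, among sites with 50 reads in all 25 libraries and over 5000 bases apart, then the 4 with the largest variance in both tissues. Alternatives covered the coverage minimum, equal depth, raw percent, other scales and centring, pairing and omitted libraries.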

Additional observations from a re-analysis of the deposited data

Results flagged for a closer look

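In 20 groups of values searched for a library far from the rest, 5 were found. Chance finds about 1 in 20 independent groups, but these measures were taken on the same libraries and are not independent, and 3 of the 5 concern the same library. The 0P library of mouse 1805 had a squared deviation of 122.8 squared points, where the next 0P library had 60.7. The same library gained 1.56% of its sites (next 0.499%) and read all-or-none at 37.6% of intermediate sites (next 4.15%). The 8ND library of mouse 1830 lost 0.878% of its sites (next 0.138%). In 8P the library of mouse 1830 had all-or-none values at 0.0958% of intermediate sites, which is 1 of 1044 sites, while the other 6 had 0.

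In 3 measures the step from epithelium to polyp was not the same on both diets. By exact permutation of diet over 12 mice, it differed by 55.9 squared points in the squared deviation (p = 0.00433, adjusted p = 0.0156), by 12.3 squared points in the covariance of sites up to 400 bases apart (p = 0.00433, adjusted p = 0.0156) and by 0.553 percentage points in gained sites (p = 0.0152, adjusted p = 0.0359). The share of reads on standards and the depth differed between 0P and 8P as well, and their part in these differences was not tested.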

How the results depend on the processing

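The larger spread of polyps on 0 mg FA passed under all alternatives run, with 22.6 to 45.7 squared points when 1 library was left out, 20.2 at a minimum of 100 reads and 57.0 at 20 reads. The smaller spread on 8 mg FA ran from -21.3 to -10.0 with 1 library left out, was -38.6 at a minimum of 20 reads and -8.90 at sites covered in all 25 libraries, and did not pass at a minimum of 100 reads (-5.32), without the libraries over 8% on the 100 most-read sites (-2.90) or with mouse as a block (paired value -17.0). The diet difference ran from 41.9 to 63.6 with 1 library left out, was 25.7 at a minimum of 100 reads, 96.0 at 20 reads and 41.9 without the libraries over 8% (p = 0.1, exact permutation, the smallest possible there), and was 55.6 with no replicate block (p = 2.59e-05, exact permutation). The tissue difference over both diets did not pass under any alternative that was tested (1.10 to 13.5 with 1 library left out; paired 10.9), and the shared part of neighbouring sites passed under all alternatives run, with -26.3 to -20.6 percentage points when 1 library was left out and -30.4 (without the libraries over 8%) to -17.2 (arcsine scale) under the others. The difference in gains turned to -0.0117 percentage points without the 2 polyps over 60% of reads on standards, an alternative chosen after seeing the data. The difference in losses passed at a minimum of 100 reads (0.237), with raw percent (0.311), drawn down to 50 reads (0.446) and without the libraries over 8% (0.791). It did not pass with pairing (0.415, sign-flip permutation p = 0.0903), at a minimum of 20 reads (0.392) or with a step of 30 points (0.142). Nor did it pass without the 2 polyps over 60% of reads on standards (0.230). The count of 1458 sites became 3 from the median, 704 drawn down, 85 with libraries centred, 683 with mouse as a block, 755 at sites covered in all 25 libraries, 1895 without the 0P library of mouse 1805 and 3655 at an unadjusted p under 0.05. The causes of these shifts were not tested. Depth limits single values, since 50 reads leave a wide counting error at 1 site.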

Other observations

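In the first cohort the epithelium of mice on 2 mg/kg FA (2ND, n = 7), at the same sites, deviated by 3.08 points, between 2.57 and 3.52 in single libraries. The 5 0ND libraries of that cohort ranged from 2.42 to 3.51 points and the 6 8ND libraries from 2.69 to 3.61.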
